A study of Mus musculus with 8 samples.

Results

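Mesothelial nuclei of the adult mouse heart were described here. They are taken to come from the epicardium, the cell sheet that covers the outer surface of the heart, but their site was not recorded. They made up 87 of 37767 nuclei (0.230%). A nucleus was counted as mesothelial when it carried at least 1 UMI (a counted RNA molecule) of at least 2 of the 5 genes Wt1, Upk3b, Muc16, Msln and Upk1b. It also had to hold at least 200 detected genes, under 5% mitochondrial UMIs, under 2% of UMIs from Ttn, Ryr2 and Trdn, and no UMI of Cdh5 (endothelium), Csf1r (macrophages) or Rgs5 (pericytes). The members were chosen by the levels of these genes in the same nuclei, so every contrast between members and other nuclei is a description with no test.

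The study profiled single nuclei of adult hearts with 10x Genomics droplets, from female and male mice of wild-type background that were non-transgenic (nTg) or carried a constitutively expressed cyclin A2 transgene (Tg-ccna2). The labels give 8 libraries in 4 groups of 2, and name neither the strain, the age in weeks, the promoter of the transgene nor the number of animals per library, so the spread between libraries may be technical. Of the nTg matrices, female 2 and both males repeated the values of their Tg counterparts and had other numbers of columns than their own barcode lists. The 5 libraries retained were nTg female 1 and both Tg females and Tg males, with 25045167 to 38593706 UMIs each. Pairs of them shared 14 to 28 barcodes, none of which was a member in both libraries of the pair.

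The transgene read-out went against 2 labels. In nuclei rich in cardiomyocyte transcripts, Ccna2 stood at 449 CPM (UMIs scaled to a library sum of 1000000) in the library labelled nTg female 1 and at 0.448 CPM in the library labelled Tg female 1, against 801 CPM in Tg female 2 and 219 and 145 CPM in the Tg males. Results that rest on these libraries are therefore given under their labels, and the sex and nTg comparisons also without Tg female 1.

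The mesothelium is a simple squamous epithelium that lines the serous cavities and covers the heart as the epicardium. It keeps keratins and an apical surface with membrane mucins, secretes lubricating fluid, and sits on a basement membrane. In the embryo the transcription factors Wt1 and Tbx18 mark epicardial cells, some of which undergo epithelial-mesenchymal transition and give rise to fibroblasts and mural cells. The adult epicardium is otherwise known as a source of retinoic acid, made by Aldh1a2, and of paracrine factors.

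The 5 markers met in the same nuclei. Of 17809 nuclei left by the exclusion filters, 17335 carried none of them and 387 carried 1, just outside the rule. Just inside it, 10 nuclei carried 2, while 15 carried 3, 24 carried 4 and 38 carried all 5. Muc16, a membrane mucin (GRCm38 chr9:18495455-18674530), was detected in 82 of the 87 members. Wt1, a zinc-finger factor (chr2:105126529-105173616), was detected in 70, Msln, the surface glycoprotein mesothelin (chr17:25748613-25754378), in 67, and the uroplakins Upk3b (chr5:136038496-136046487) and Upk1b (chr16:38773184-38800328) in 66 each. Wt1 was the least particular of the 5: 368 of the 17809 nuclei carried it, 298 of them with no other marker, and 19.0% were members. For Upk1b 97.1% of 68 nuclei with a UMI were members, for Msln 75.3% of 89, for Muc16 71.9% of 114 and for Upk3b 66.7% of 99.

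Levels of the rule genes, in CPM of the members' summed UMIs, are given in the library order nTg female 1, Tg females 1 and 2, then Tg males 1 and 2, which is kept below wherever 5 values follow each other. Muc16 stood at 2982, 1502, 1926, 1963 and 2376 CPM. Wt1 stood at 542, 475, 603, 382 and 612 CPM, a spread of 96.1 (SD, n = 5) around a mean of 523. Upk3b was the most uneven, at 226, 930, 311, 327 and 953 CPM, high in Tg female 1 and Tg male 2.

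A list of 28 other mesothelial and epicardial genes, none of which entered the rule, was set beside the label. The list was chosen with earlier results of these data known, so it is not an independent check. They took a median of 0.0318% of UMIs in nuclei with 1 marker, 0.0514% in nuclei with 2, 1.18% with 3, 1.39% with 4 and 1.63% with 5. In fibroblast nuclei (12561 nuclei under the same filters with at least 2 of Pdgfra, Dcn, Col1a1, Col3a1 and Lum and none of the 5 markers) the median was 0.0706%. The step therefore lay between 2 and 3 markers: at least 5 of the 28 genes were detected in 12 of 387 nuclei with 1 marker, in 3 of 10 with 2, and in 76 of 77 with 3 or more. The 10 nuclei with 2 markers had a median of 1715 UMIs, against 2446, 2850 and 4248 UMIs in those with 3, 4 and 5, so nuclei with more markers were also deeper.

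**Figure D1:**
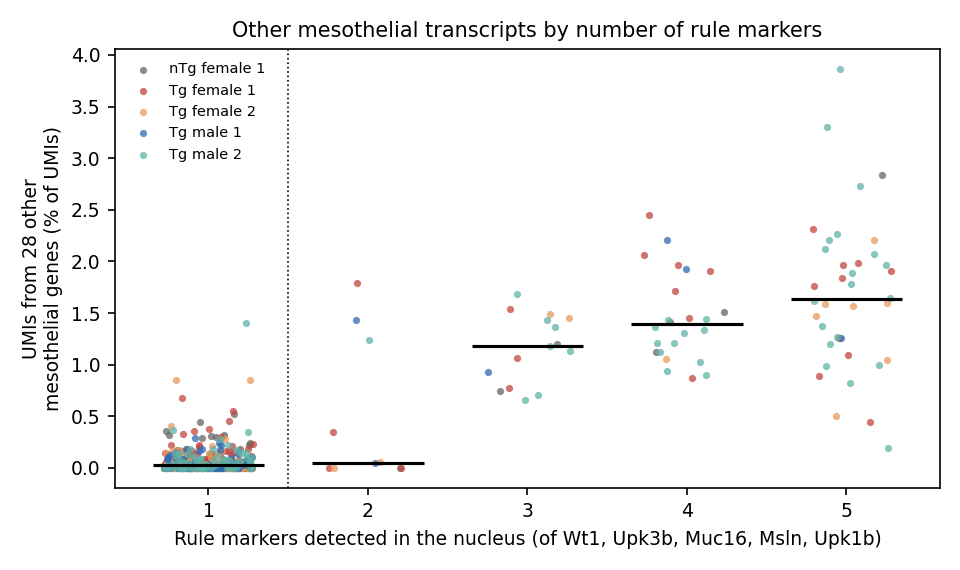
Percent of each nucleus's UMIs that came from 28 other mesothelial genes, by the number of rule markers it carried (points, nuclei coloured by library, spread sideways at random; black lines, medians; dotted line, the rule). Nuclei with 3 to 5 markers centre on 1.18 to 1.63%, while those with 1 or 2 centre on 0.0318 and 0.0514%.

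The exclusion filters removed 52 further nuclei that carried 3 or more markers, and all 52 held at least 5 of the 28 genes, at a median of 1.01% of UMIs. They lay in the libraries as 2, 19, 8, 6 and 17 nuclei. Csf1r was present in 36 of the 52, Cdh5 in 21 and Rgs5 in 11, and 1 exceeded the limit on Ttn, Ryr2 and Trdn. Csf1r, the receptor of macrophage colony-stimulating factor, was thus found in 27.9% of all 129 nuclei with 3 or more markers, at 92.3 CPM. Fibroblast nuclei had it in 2.95% (21.9 CPM) and nuclei with at least 2 of Mrc1, F13a1, Ptprc, Cd163 and Adgre1 in 76.7% (535 CPM), at median depths of 4104, 2681 and 2756 UMIs. Of the 36 Csf1r-bearing nuclei, 25 had none of those 5 macrophage genes. Whether free RNA, joined nuclei or the cells' own transcripts gave these UMIs was not tested.

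Members were moderately deep. Their median was 3446 UMIs and 1782 genes, against 2668 UMIs and 1558 genes in fibroblast nuclei, and library medians ran from 2673 to 3647 UMIs. The deepest member held 16136 UMIs. In all, 335681 UMIs were summed, as 22135, 103210, 51400, 18340 and 140596, so nTg female 1 and Tg male 1 are the least precise. A doublet caller marked 11 of the 87 members (0, 5, 0, 3 and 3).

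The markers of other cell types were at low levels, with 4 exceptions. None of the 87 members carried 3 or more of the listed genes of macrophages, lymphatic endothelium, pericytes, smooth muscle, Schwann cells, lymphocytes or adipocytes, and Ptprc, Tagln, Lyve1 and Adipoq were at 0. The rule itself barred any UMI of Csf1r, Cdh5 or Rgs5, so low content of macrophage, endothelial and pericyte genes is in part built in. At least 3 cardiomyocyte genes were carried by 48 members, with a summed share of 0.219% of UMIs against 0.164% in fibroblast nuclei. By library their sum was 1672, 940, 856, 981 and 3834 CPM in members, against 1822, 1530, 2153, 1276 and 1509 CPM in fibroblast nuclei. In Tg male 2, the only library where members were higher, 1 nucleus called a doublet held 200 Ttn and 72 Myh6 UMIs. At least 3 of 8 fibroblast genes were carried by 39 members, with 0.366% against 1.19% of UMIs. Endothelial genes reached 3 in 9 members and endocardial genes in 7. The part of free RNA or joined nuclei in these counts was not tested.

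The number of members differed among libraries more than between the sexes. There were 7, 24, 12, 6 and 38, or 0.112% (95% Clopper-Pearson interval 0.0450 to 0.231), 0.247% (0.158 to 0.367), 0.172% (0.0886 to 0.299), 0.0756% (0.0277 to 0.164) and 0.554% (0.392 to 0.760) of the nuclei passing the quality filters. These intervals cover counting error only. The highest and the lowest share were both in libraries labelled Tg male, and the other 3 libraries lay between them. The Tg female mean was 0.209% ± 0.0533 and the Tg male mean 0.315% ± 0.338 (SD, n = 2 each), a difference of -0.106 percentage points that did not exceed the spread (two-sided exact permutation test, p = 1; 2 against 2 cannot go below 0.33). Without Tg male 2 the difference was 0.134 points, with females higher, and without Tg female 1 it was -0.143.

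**Figure D2:**
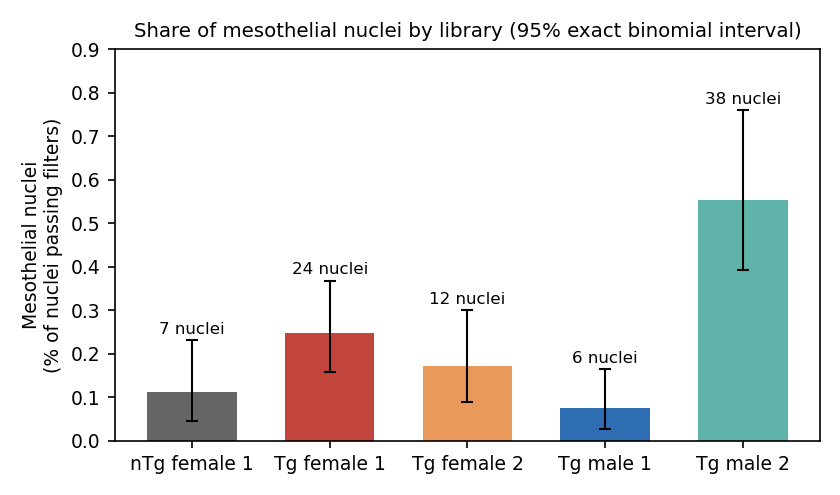
Mesothelial nuclei as a percent of the nuclei passing the quality filters in each library (bars), with 95% exact binomial intervals that cover counting error only (whiskers). Tg male 2 stands at 0.554% and Tg male 1 at 0.0756%, with the 2 Tg female libraries at 0.247 and 0.172%.

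Against all other nuclei, the genes named were the 25 with the highest median log2 ratio over the 5 libraries (on CPM + 1) among genes with at least 50 CPM in every library. The rule genes Muc16, Upk1b, Msln and Upk3b were among them, as was Rspo1, a secreted enhancer of Wnt signalling. The long noncoding RNA Gm29266 (chr14:60485208-60599031) led the genes outside the rule, at 632, 358, 895, 818 and 533 CPM, against a mean of 1.29 CPM in other nuclei (log2 ratio 8.31, library range 7.06 to 8.78). Nkain4, which interacts with the sodium pump, stood at 416 ± 131 CPM (SD, n = 5) against 1.56.

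Slc26a3, a chloride-bicarbonate exchanger (chr12:31390871-31473917), stood at 452, 300, 253, 382 and 405 CPM against a mean of 0.883 in other nuclei. Cftr, the chloride channel altered in cystic fibrosis (chr6:18170687-18322768), stood at 226, 58.1, 156, 327 and 327 CPM against 0.404. The 5 member values of each gene all lay above the level in the other nuclei of every library. The naming rule asked for at least 50 CPM in every library, so this follows largely from the choice of genes. Other transporters and receptors were Slc39a8, a zinc and manganese importer (647 ± 627 CPM against 1.95), and Lrp2, the endocytic receptor megalin (228 CPM against 0.571).

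Gpm6a, a membrane glycoprotein (chr8:54954843-55060871), stood at 2214, 2703, 3288, 2345 and 2411 CPM against 31.5 in other nuclei. Il1rapl1, a synaptic adhesion receptor on chromosome X, stood at 949, 2626, 2393, 1963 and 3080 CPM against 26.4, lowest in nTg female 1. Grip1, a PDZ scaffold protein, stood at 2155 ± 495 CPM against 16.7, Pcdh15, a protocadherin, at 1237 ± 280 against 9.21, and Wwc1, the Hippo pathway protein KIBRA, at 372 ± 31.7 against 2.22. The remaining named genes were Chst4, Gm4577, Bmpr1b, Lrrn4, Bnc1, Cyp2s1, Sema3e, Fmod and Mbp, with means of 143 to 402 CPM. The 10 lowest ratios (log2 -10.14 to -8.26) included the cardiomyocyte transcripts Actn2, Mlip, Chrm2 and the antisense RNA Mhrt. All 10 were at 0 UMIs in members of at least 3 libraries, so these ratios depend on the pseudocount. The other nuclei include cardiomyocytes, while the rule kept members under 2% of UMIs from Ttn, Ryr2 and Trdn. Low ratios of cardiomyocyte transcripts thus follow largely from the rule.

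**Figure D3:**
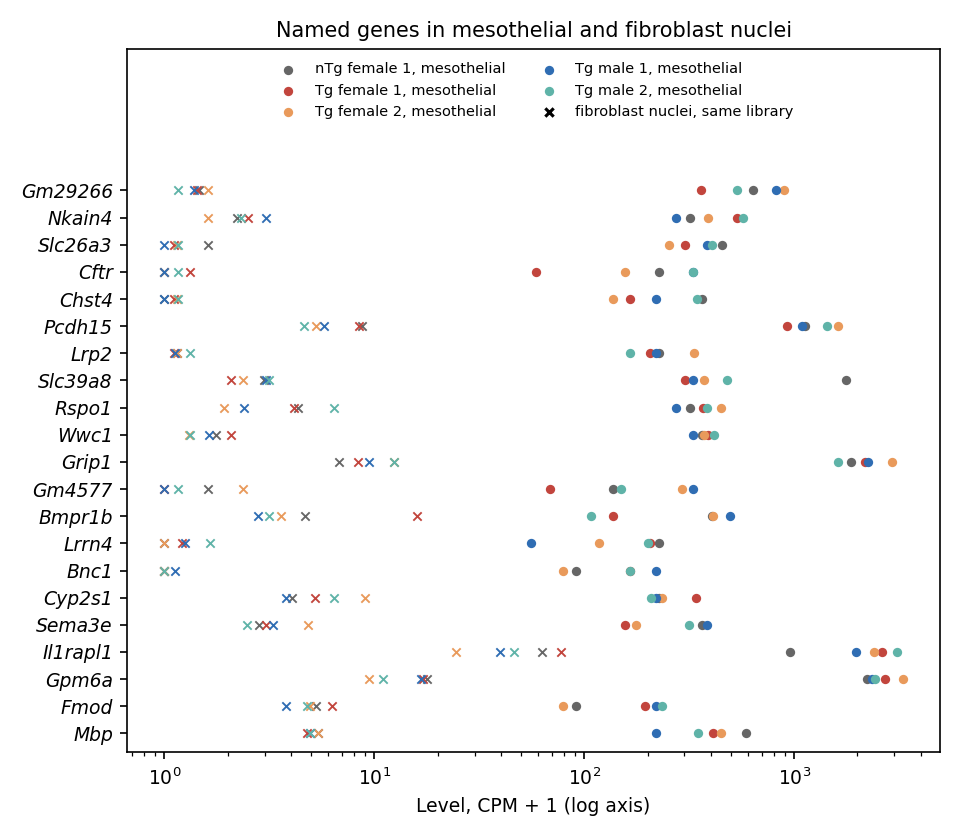
Level (CPM + 1, log axis) of 21 named genes outside the rule in mesothelial nuclei (dots) and fibroblast nuclei (crosses) of each library. In every library and for every gene shown the dot lies to the right of the cross, which follows largely from choosing genes by high member ratios. Slc39a8 in nTg female 1 (1762 CPM) stands to the right of its other 4 dots.

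The promoters of the named genes were searched for 3 short motifs because the factors are known in mesothelium or heart: letters GGAATG for TEAD factors, letters AGATAA for the GATA family and letters GCGTGGG for a core bound by WT1, on both strands. RefSeq windows (GRCm38.p6, from 250 bases before to 50 after the start) were found for 20 of the 25 genes, as 26 windows. Only the 250 bases before the start were searched, in these and in all other windows. TEAD letters occurred in 5 of the 26 windows, GATA letters in 2 and WT1 letters in 1, against 12.6%, 9.99% and 4.30% of all 32851 windows. Printed below are the 250 bases upstream of Upk3b, a rule gene with TEAD letters, of Cftr, the named gene with WT1 letters, and of Muc16, the most abundant rule gene, which has none of the 3. Capitals mark the match, which in Upk3b lies on the opposite strand. A match is letters in a window, not a site shown to be bound.
Upk3b promoter (chr5:136038246-136038495, plus strand): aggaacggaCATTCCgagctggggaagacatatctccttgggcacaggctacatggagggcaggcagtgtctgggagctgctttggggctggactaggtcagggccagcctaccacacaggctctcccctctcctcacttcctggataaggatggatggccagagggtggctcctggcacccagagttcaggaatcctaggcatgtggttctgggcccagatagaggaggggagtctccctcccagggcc
Cftr promoter (chr6:18170437-18170686, plus strand): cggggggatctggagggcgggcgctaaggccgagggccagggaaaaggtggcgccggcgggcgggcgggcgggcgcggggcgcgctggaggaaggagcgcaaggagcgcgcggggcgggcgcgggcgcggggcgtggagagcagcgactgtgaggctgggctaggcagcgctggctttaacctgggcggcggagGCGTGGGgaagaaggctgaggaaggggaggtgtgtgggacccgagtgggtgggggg
Muc16 promoter (chr9:18674604-18674853, minus strand): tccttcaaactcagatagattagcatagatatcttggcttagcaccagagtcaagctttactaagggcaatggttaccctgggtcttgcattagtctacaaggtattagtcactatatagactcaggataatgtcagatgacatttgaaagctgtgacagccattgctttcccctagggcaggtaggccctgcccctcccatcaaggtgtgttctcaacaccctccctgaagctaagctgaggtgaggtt

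Gene lists are set against fibroblast nuclei, the 12561 nuclei of the same libraries defined above. A gene was counted as higher or lower when the members' CPM was at least 2-fold above or below the fibroblast CPM of the same library in each of the 5 libraries. Over all 7908 genes with a mean of at least 20 CPM, 325 (4.11%) were higher and 304 (3.84%) lower by this count, with a median log2 ratio of -0.21. This mean is taken over both classes, so a gene low in one class could be considered through its level in the other alone, and the counts below read only as descriptions. List medians are over every listed gene. Of the 28 other mesothelial genes, 26 reached 20 CPM, and 20 were higher and none lower. Over all 28 the median log2 ratio was 4.48 ± 0.51 (SD over 5 libraries), as 3.89, 4.58, 4.66, 3.94 and 5.07.

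Among the list's epithelial keratins, Krt19 stood at 45.2, 116, 58.4, 54.5 and 178 CPM and Krt7 at 45.2, 29.1, 117, 109 and 99.6 CPM, both against under 0.1 CPM in fibroblast nuclei on average. Krt8 and Krt18 were at 0 in nTg female 1 and at means of 27.2 and 42.7 CPM. Calb2 (calretinin), a standard marker of human mesothelium, had no UMI in any member. The secreted proteins of the list were among its most abundant: Efemp1, a fibulin, stood at 768, 1289, 1245, 1200 and 1494 CPM, and Igfbp5, an IGF-binding protein, at 994, 911, 973, 1636 and 1451 CPM, against 80.6 and 46.9 CPM on average in fibroblast nuclei. Pdpn (podoplanin), a surface glycoprotein, stood at 295 ± 137 CPM against 39.3, and Gpc3, a heparan sulfate proteoglycan, at 513 ± 176 against 38.2.

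Of 17 epicardial and cardiac transcription factors, 13 were considered, and 2 were higher (Bnc1, Tead1) and 1 lower (Tbx20). Bnc1, a zinc-finger factor of epithelia, stood at 90.4, 165, 77.8, 218 and 164 CPM against 0.0256 in fibroblast nuclei. Tead1, the DNA-binding partner of the Hippo pathway coactivators, stood at 632, 475, 720, 600 and 619 CPM against 220 ± 12.4, with no overlap. Tbx18 stood at 45.2, 223, 136, 54.5 and 149 CPM against 28.8, and reached a 2-fold ratio in some libraries only. Gata5 was at 0 in nTg female 1 and at 48.4 to 58.4 CPM in the other 4 libraries, against 0.420 CPM in fibroblast nuclei. Tcf21, a factor of epicardium-derived fibroblasts, had 2 UMIs in all members.

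The retinoic acid list gave 2 higher (Aldh1a2, Rarres2) and 1 lower (Rarb) of 9 considered. Aldh1a2, which makes retinoic acid, stood at 181, 252, 350, 164 and 363 CPM against 18.3 ± 7.57 in fibroblast nuclei, a median log2 ratio of 3.90. Its paralogue Aldh1a1 was at a like level in both classes, 833 ± 471 CPM in members and 741 ± 313 CPM in fibroblast nuclei. Rarres2, which encodes chemerin, stood at 678, 1027, 681, 2399 and 1977 CPM, with both Tg male libraries above the other 3. The retinoid receptors Rarg and Rxra stood at 51.1 and 50.7 CPM, and the binding proteins Crabp1 and Crabp2 and the degrading enzyme Cyp26a1 were at 0.

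Epithelial junction and polarity genes gave 4 higher (Crb2, Cgn, Patj, Ezr) and none lower of 12 considered, and the median log2 ratio over all 16 listed genes was 1.24. Ezr (ezrin), which ties microvilli to actin, stood at 361, 484, 623, 273 and 533 CPM against 20.8 ± 3.42. Cgn (cingulin), a tight-junction protein, stood at 117 ± 54.4 CPM against 0.528, and Cdh3 (P-cadherin) at 181, 233, 117, 0 and 128 CPM against 0.208. Cdh1 (E-cadherin), Epcam and Ocln (occludin) had no UMI in any member. The members thus carried apical polarity transcripts without detected transcripts of 3 common epithelial junction genes, at a pooled limit of 8.94 CPM (3 counts of 335681 UMIs).

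The basement membrane list had 2 higher (Lama5, Itga3) and 5 lower (Lama2, Lamb1, Lamc1, Nid1, Hspg2) of 20 considered. Lama5, the laminin chain of many epithelia, stood at 45.2, 48.4, 77.8, 109 and 92.5 CPM against 5.88, and Itga3, a laminin-binding integrin chain, at 111 ± 57.4 against 6.44. Lama2, the laminin chain of muscle and fibroblasts, stood at 242 ± 160 CPM against 2503 ± 446. Of the collagen IV chains, Col4a1 stood at 103 ± 74.0 CPM against 531 ± 97.7. Col4a3 and Col4a4 were at like levels in both classes, 273 ± 119 and 494 ± 217 CPM against 216 and 342. None of these chains was counted as higher or lower.

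Of 12 epithelial-mesenchymal transition genes considered, none was higher and 2 were lower (Pdgfra, Pdgfrb). Pdgfra, the receptor that marks cardiac fibroblasts, stood at 24.2 ± 36.3 CPM in members against 725 ± 84.6, but it was one of the genes that defined the fibroblast nuclei. Snai1 and Snai2, repressors of E-cadherin, had no UMI. Zeb1 stood at 226, 572, 545, 818 and 299 CPM against 1455 ± 182, and Tgfb2, a ligand known in epicardial transition, at 271, 107, 311, 273 and 149 CPM against 85.2.

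Paracrine factors gave 5 higher (Rspo1, Sema3d, Pdgfd, Slit3, Wnt5a) and 1 lower (Igf1) of 17 considered. Slit3, an axon-guidance ligand of Robo receptors, was the most abundant, at 3976, 1705, 3074, 2672 and 2411 CPM against 712 ± 299. Pdgfd, a ligand of the beta PDGF receptor, stood at 1310, 872, 739, 1036 and 1252 CPM against 129 ± 25.6. Sema3d, a secreted semaphorin, stood at 813, 1085, 1479, 545 and 647 CPM against 61.8. All 5 member values of each of these ligands lay above the fibroblast mean, which follows largely from their count as higher in each of the 5 libraries. Igf1 had 6 UMIs in 5 members, against 111 CPM in fibroblast nuclei, and Igf2 and Bmp2 were at 0.

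Of the serosal genes considered, Aqp1 and Ptgs1 were higher. Aqp1, the water channel, stood at 452, 310, 117, 327 and 356 CPM against 26.1. Prg4, the lubricant lubricin, had 9 UMIs in 8 members, at 45.2, 38.8, 19.5, 0 and 21.3 CPM, against 48.4 ± 11.8 in fibroblast nuclei. Complement gave 2 higher (C3, Cfb) and none lower of 9. C3, the central component, stood at 949, 1327, 195, 927 and 1430 CPM against 140 ± 64.1, lowest in Tg female 2.

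Cell-cycle transcripts were at or near 0, apart from some cyclins. Mki67, Top2a, Cdk1 and Ccnb1 had no UMI in any member. Ccna2 itself had none in any of the 87 members, whose limits, from 3 counts, were 136, 29.1, 58.4, 164 and 21.3 CPM, while fibroblast nuclei had 12.9, 0.972, 31.5, 8.95 and 7.73 CPM. At this depth a level like that of the fibroblast nuclei would not be detectable in any single library. The G1 cyclins Ccnd2 and Ccnd3 stood at 84.5 ± 86.2 and 267 ± 87.0 CPM, against 34.0 and 395 in fibroblast nuclei.

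**Figure D4:**
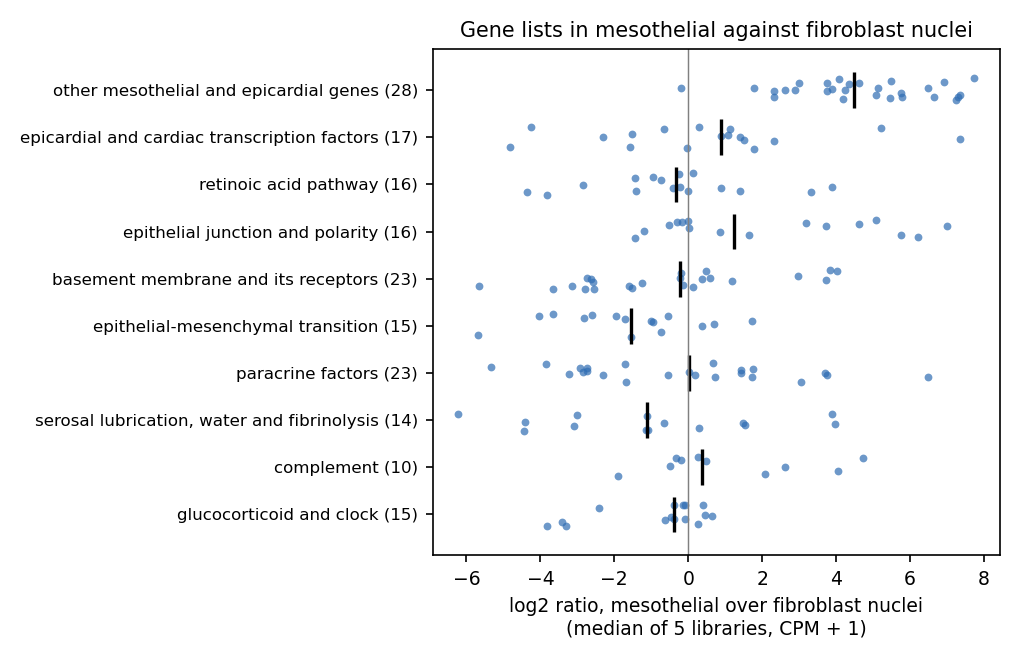
Log2 ratio of mesothelial to fibroblast nuclei (median over 5 libraries, CPM + 1) for every gene of 10 lists (points, spread vertically at random; bars, list medians; number of genes in brackets). The mesothelial list centres on 4.48, the junction list on 1.24 and the basement membrane list on -0.23.

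Some genes listed for other cell types were also high in members. Kdr, the VEGF receptor that marks endothelium, stood at 723, 165, 350, 54.5 and 192 CPM against 15.1 ± 6.87 in fibroblast nuclei, and was detected in 38 of 87 members and in 34 of the 52 nuclei left out. Npr3, a natriuretic peptide clearance receptor that marks endocardium, stood at 361, 601, 195, 164 and 228 CPM against 51.6 ± 23.1. Pecam1, another endothelial gene, stood at 70.0 CPM in members and 97.6 CPM in fibroblast nuclei. With nuclei thinned to 1000 UMIs (83 members and 12412 fibroblast nuclei deep enough), Kdr was found in 24.1% of members and 1.28% of fibroblast nuclei, and unthinned in 43.7% of members. Col3a1, counted as a fibroblast gene, stood at 949, 2374, 1751, 1854 and 1465 CPM in members, against 857 ± 153. It was one of the genes that defined the fibroblast nuclei, while the fibroblast list as a whole took the lower share of members' UMIs given above.

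Wdr17, chosen for description after its values were seen, was the second most abundant transcript of the members after Malat1. It encodes a WD-repeat protein (chr8:54629055-54887184, minus strand) and lies head to head with Gpm6a, the starts 67659 bases apart. It took 1.73% of the members' UMIs, at 1084, 15793, 15389, 19248 and 21501 CPM, and 105 to 209 CPM in fibroblast nuclei, where it ranked 1071. The 4 Tg libraries lay far above nTg female 1, whereas Gpm6a, its neighbour, was even across all 5.

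Wdr17 followed the same step in marker number as the 28 mesothelial genes. Its level was 575 CPM in nuclei with 1 marker, 755 with 2, 17730 with 3, 19624 with 4 and 17964 with 5. The 7 members of nTg female 1 held 0, 0, 1, 2, 6, 7 and 8 UMIs. Tg male 1 was as low in most of its 6 members, with 0, 0, 5, 7 and 13 UMIs, and a single nucleus gave 328 of its 353. Medians were 54.5 UMIs in Tg female 1, 60.0 in Tg female 2 and 80.5 in Tg male 2. The 2 nuclei of nTg female 1 that the exclusion filters had left out held 71 and 79 UMIs (8478 CPM), so the low level did not extend to them. Left-out nuclei of the other libraries stood at 7787, 2355, 21092 and 8759 CPM.

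**Figure D5:**
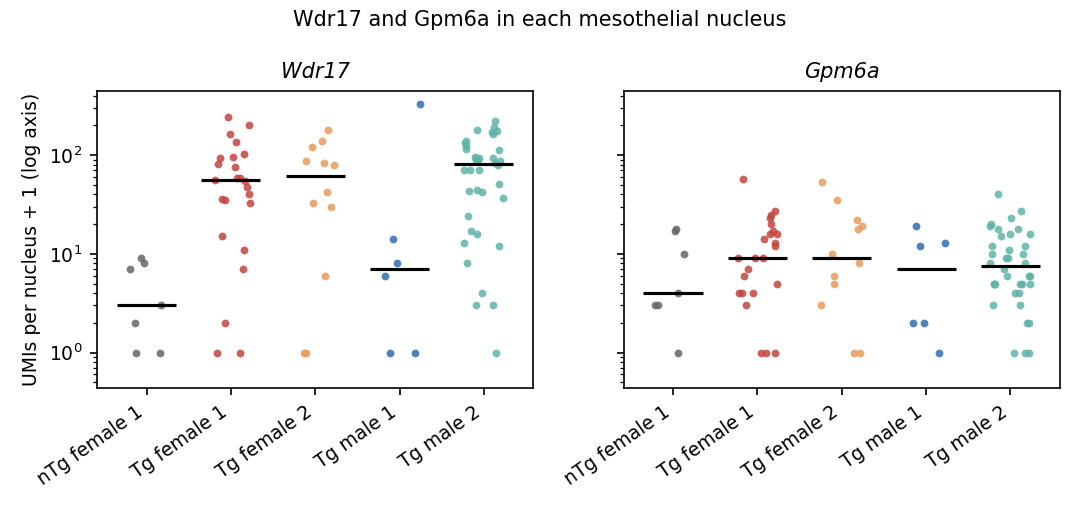
UMIs of Wdr17 (left) and Gpm6a (right) in each mesothelial nucleus, plus 1, on a log axis, by library (points, nuclei; lines, medians). Wdr17 has at most 8 UMIs in nTg female 1 and medians of 54.5 to 80.5 in Tg female 1, Tg female 2 and Tg male 2, while Gpm6a overlaps among all libraries.

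The sexes were compared within the Tg label, 2 female against 2 male libraries, on members' summed UMIs. Only Xist and Tsix, the paired RNAs of X inactivation, passed edgeR's quasi-likelihood test, 2 of 1806 genes tested (0.111%) at an adjusted p under 0.05, with 90 genes at an unadjusted p under 0.05. Xist stood at 1250 and 837 CPM in the Tg female libraries and 858 CPM in nTg female 1, and had no UMI in either male library. Set against 3 counts over both male libraries (18.9 CPM) it was at least 55.3-fold higher in females (edgeR adjusted p = 0.000222). Tsix was at least 37.3-fold higher (edgeR adjusted p = 0.00032) but stood at 45.2 CPM in nTg female 1, where Xist was high. Without Tg female 1 the bounds were 44.3-fold for Xist and 34.0-fold for Tsix, from Tg female 2 alone. Tsix lies antisense to Xist, and the strand setting of the counting is not given in the sources used here. No gene passed without Tg female 2 or without Tg male 1, 5 passed without Tg female 1 and 6 without Tg male 2.

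Y-linked genes were too sparse to test. Uty had 2 and 20 UMIs in Tg male 1 and Tg male 2 and Ddx3y had 1 and 10, with none in the 3 female libraries. Kdm6a, an X-linked gene that escapes inactivation, stood at 368 and 272 CPM in Tg females and at 0 and 135 in Tg males, without passing (log2 1.53, SE 0.64, edgeR adjusted p = 0.861). The 5 autosomal genes with the lowest p were Ttn, Ebf1, Slc7a15, Casp4 and Cped1, and none passed (edgeR adjusted p 0.119 to 0.578). The selection rule limited Ttn, so its values are a description only. Casp4, an inflammatory caspase, stood at 96.9 and 19.5 CPM in Tg females and at 763 and 213 CPM in Tg males. Slc7a15, an amino acid transporter, stood at 19.4 and 19.5 CPM against 327 and 178. Both were separate between the sexes, but on 30 UMIs or fewer in every library. In simulated counts for these 1806 genes, 14% of 2-fold, 62% of 4-fold and 92% of 8-fold changes were called. The simulation gave every gene the same variation between libraries (dispersion 0.0846), so genes with most UMIs in 1 nucleus were not modelled.

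Whether the sex difference itself differed between mesothelial and fibroblast nuclei was tested with an interaction term. Of 14514 genes 8 passed (0.0551%), with 402 at an unadjusted p under 0.05. For Bmper and Ebf1 (0.0138%) the female-to-male ratio was higher in mesothelial nuclei, and for 6 (0.0413%) it was lower. Bmper, a BMP-binding secreted protein, stood at 165 and 77.8 CPM in Tg female and at 0 and 21.3 CPM in Tg male members, from 17, 4, 0 and 3 UMIs (log2 difference of effects 4.03, edgeR adjusted p = 0.0465). In fibroblast nuclei Bmper went the other way, at 385 and 230 CPM in Tg females and 629 and 757 CPM in Tg males. The difference of effects therefore draws on both classes. Ebf1, a transcription factor of fibroblasts and pericytes, stood at 630 and 292 against 109 and 42.7 CPM in members and at 2061 to 2522 CPM in fibroblast nuclei (3.24, edgeR adjusted p = 0.0465). Ttn, Rbm20, Inpp4b and Ank3 went the other way. The rule capped Ttn in members and fibroblast nuclei alike, so its call is not independent of the rule and is given as a description.

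Most of these calls rested on few nuclei. Of the 17 Bmper UMIs in Tg female 1, 10 were in 1 nucleus. One member of Tg male 2, the deepest of all with 16136 UMIs, held 200 of the library's 223 Ttn UMIs, all 46 of Rbm20, all 19 of Inpp4b and all 12 of Ank3. It carried all 5 mesothelial markers and was called a doublet. The other two lower calls, Fgf13 (edgeR adjusted p = 0.0312) and Postn (edgeR adjusted p = 0.0272), had overlapping groups and are named here after their values were seen. Fgf13 had 30 UMIs, all in 1 nucleus of Tg male 2, and Postn had 16 UMIs, 13 of them in 1 of 2 nuclei of Tg male 1. With called doublets removed no gene passed the interaction test, nor with DESeq2, nor without Tg female 1 or Tg female 2, while 26 passed without Tg male 1.

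The library labelled nTg female 1 was set against the 4 Tg libraries without a test, since it has no replicate and its Ccna2 level goes against its label. Of 398 genes with at least 20 UMIs on the higher side, 22 (5.53%) were at least 2-fold above the Tg mean and above the Tg range, and 77 (19.3%) were likewise below. A gene needed 20 UMIs in nTg female 1, or 904 CPM, to count as above, but a much lower level in the deeper Tg libraries to count as below, so the counts cannot be set against each other. The nTg sum of 22135 UMIs was smaller than the Tg mean, and its members' median mitochondrial share was 4.15%, against 1.40 to 2.59% in the Tg libraries. Without Tg female 1 the counts were 24 and 71. Without Tg male 1, 155 genes were below.

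Slc39a8 stood at 1762 CPM in nTg female 1 (95% Poisson interval 1253 to 2409), from 39 UMIs in 5 of 7 nuclei, and at 368 ± 77.5 CPM in the Tg libraries (SD, n = 4), or 391 ± 77.0 without Tg female 1 (n = 3). The interval covers counting error only, and 18 of the 39 UMIs were in 1 nucleus. Cd36, a fatty acid translocase, stood at 994 CPM against 138 ± 127, but 21 of its 22 UMIs were in 1 nucleus. Ccdc85a likewise had 24 of its 30 UMIs in 1 nucleus. Endothelial markers summed to 2575 CPM in this library against 164 to 1327 CPM in the others, and their relation to Cd36 was not tested. Sugct stood at 904 CPM and Btbd9 at 994 CPM, against 194 and 304 CPM, from 4 and 7 nuclei. Zbtb16, a glucocorticoid-induced factor, stood at 2711, 397, 759, 1254 and 1273 CPM. The 5 lowest ratios, Gm35188, Wls, Gm20275, Gm26632 and Abca8a, had no UMI in nTg female 1, where 3 counts correspond to 136 CPM. Wls, the carrier that Wnt proteins need for secretion, was thus at least 3.29-fold lower than the Tg mean of 446 CPM, and Gm35188 at least 3.44-fold lower than its 466 CPM. Without Tg female 1 these bounds were 3.53-fold and 3.46-fold. Abca8a is a fibroblast marker, and 22 of its 40 UMIs in Tg female 1 came from 1 nucleus.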

How the data were processed

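Per the file headers, the deposited UMI counts per gene and barcode were written by Cell Ranger 7.0.0; per the submitters' processing notes the build is mm10. The authors' counts are raw whole numbers. The annotation, the intron and strand settings and the cell call are not given in the sources used here. Depth was 25045167 to 38593706 UMIs per library.

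Members and gene lists were chosen with earlier results of these data known. Members' UMIs were summed per library and given as CPM, with log2 ratios on CPM + 1. Sex was tested in the 4 Tg libraries with edgeR 4.0.16 (quasi-likelihood, TMM, filterByExpr, Benjamini-Hochberg over all genes tested, threshold 0.05), and the interaction with library as a block. DESeq2 1.42.0 was an alternative. Of these tests, only that of sex in members was also run on simulated data. Named genes were all listed genes, the 25 highest and 10 lowest member ratios, the sex and interaction genes past the threshold with separate groups (else the 5 autosomal genes of lowest p) and the 5 highest and 5 lowest nTg ratios. Doublets were called with scrublet in scanpy 1.11.5 at an expected rate of 6% and kept; in Tg female 2 its threshold failed and the highest 5.99% of scores were taken. One result of the serosal list is not reported here. Gene coordinates come from GENCODE on GRCm38.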

Additional observations from a re-analysis of the deposited data

Results flagged for a closer look

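Wls stood at 349, 350, 763 and 320 CPM in the members of Tg females 1 and 2 and Tg males 1 and 2, and the gap between Tg male 1 and the next library was 0.932 of the whole range. It was 1 of 11 groups of 4 libraries checked in this way, and chance alone gives about 1 in 20. Tg male 1 had 14 Wls UMIs in 4 nuclei.

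The interaction test of edgeR set the sex effect (female over male) in mesothelial nuclei against that in fibroblast nuclei. It called Bmper (log2 4.03), Ebf1 (3.24), Ank3 (-12.53), Inpp4b (-12.08), Rbm20 (-5.73) and Ttn (-2.79). No gene was called with doublets removed or with DESeq2. The rule capped Ttn, so its value is a description only. In Tg male 2, 1 member called a doublet held 200 of 223 Ttn UMIs, all 46 of Rbm20 and all 19 of Inpp4b. The Ank3 and Inpp4b values depend on the prior count, since both Tg female libraries had no UMI of either gene in members, and Ank3 came from 1 nucleus in each Tg male library.

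Among nuclei outside the comparisons, 52 left out by the exclusion filters carried 3 or more of the 5 markers.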

How the results depend on the processing

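The median log2 ratio of the 28 other mesothelial genes over fibroblast nuclei (4.48) kept its direction in every alternative tried, 3.29 with a pseudocount of 10 CPM and 4.36 to 4.78 when single libraries were left out. It was 4.74 without the 2 libraries of under 10 members, an alternative added after seeing the data, as were the 2 that lift the exclusion filters. The member count was 68 to 86 under thinning, 3 markers, 500 genes or doublet removal, and 164 without the exclusion filters. The sex difference of the share ran from -0.345 to 0.134 points when single libraries were left out, and reversed, to 0.134, without Tg male 2. The count of sex-different genes (2) was 8 without a filter and 5 with 3 or more markers. With 5 libraries it was 11 with a genotype covariate and 4 without that covariate. It was 0 with at least 10 UMIs in every library. That filter drops Xist and Tsix before the test, since neither had a UMI in the Tg males. The labels' numbers did not pair the samples (deviation correlation -0.026 over 1806 genes), and the replicate block gave 2 calls. The interaction count (8) was 0 with DESeq2, 0 without a filter, 0 with doublets removed, and 0 to 26 when single libraries were left out. For nTg female 1, the genes above and below (22 and 77) were 5 and 49 at 3-fold, 6 and 13 at 50 UMIs, 26 and 121 against Tg females only, and 22 and 378 with 3 or more markers and the left-out nuclei added; leaving out single Tg libraries gave 22 to 27 and 52 to 155. The cause of these shifts was not tested. Depth limits the rest: in nTg female 1 a gene at 0 UMIs may stand at up to 136 CPM.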

Other observations

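A pair of further transcripts were abundant in the members. Rbfox1, an RNA-splicing factor known from neurons and muscle, came next by UMIs after Malat1 and Wdr17, and stood at 14457 CPM in nTg female 1, against 8478, 5019, 11723 and 3158 CPM in Tg females 1 and 2 and Tg males 1 and 2. Kcnd2, a voltage-gated potassium channel subunit, stood at 5602 CPM in nTg female 1 and at 1963 to 2582 CPM in the Tg libraries. Both were chosen after their values were seen.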
